A study of Mus musculus with 15 samples.

Results

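The comparison described here is that of oocytes from preantral follicles grown in vitro to day 6 with neurotrophin-4 (NT-4) and without it. Its members are 6 of the 15 libraries of the series, found by their titles, with 3 libraries of IVG-NT day 6 oocytes and 3 of IVG day 6 oocytes, the control culture. Follicles of both groups were dissected from ovaries of Kunming mice aged 12 to 14 days and kept in culture for 6 days, with NT-4 added at 100 ng/mL for the IVG-NT group only. Each library was made from a pool of 6 oocytes by SMART-Seq2, a method that starts cDNA from the poly(A) tail with an oligo-dT primer and then uses PCR. The methods of the study take the 3 samples of a group from separate experiments, and neither they nor the labels say which samples of different groups share one. Of 55401 genes in the files, 13986 were tested, namely those that passed edgeR's filter on low counts and whose mean level over the 6 libraries reached 1.68 CPM (counts per 1000000 of the scaled total), which is 10 counts in the shallowest library.

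NT-4, the product of Ntf5, binds the receptor tyrosine kinase TRKB (gene Ntrk2) with high affinity and the p75 receptor (gene Ngfr) with lower affinity. Activated TRKB recruits adaptors that lead to the RAS-MAPK cascade, to PI3K and AKT, and to phospholipase C and calcium release. In the ovary, neurotrophins and their receptors are found in oocytes and in granulosa cells, and a growing oocyte accumulates the RNAs that it later needs for meiosis and for the early embryo.

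The 6 libraries differed widely, and 2 of the 3 NT-4 libraries stood apart from the rest. Total counts were 5954262, 7125348 and 50336973 in NT-4 replicates 1, 2 and 3, and 28674696, 23684453 and 55593251 in control replicates 1, 2 and 3. The rRNA gene CT010467.1 took 29.9%, 27.8% and 0.198% of the counts with NT-4 and 19.2%, 28.7% and 0.396% without. Of 5943 genes with at least 10 CPM in all 3 control libraries, 542 (9.12%) had no count in NT-4 replicate 1 and 768 (12.9%) had none in replicate 2, although 10 CPM equals 52.2 and 55.3 counts there, while 0 were without a count in NT-4 replicate 3. Of the 182 such genes without a count in both shallow libraries, 148 lay within 2-fold of control replicate 3 in NT-4 replicate 3. Most tested genes did so too, since of all 13986 only 1187 were more than 2-fold higher and 1697 more than 2-fold lower there. With every library thinned to the total of the shallowest, 36.6% of the tested genes were at 0 in NT-4 replicate 2 and 27.6% in replicate 1, against 5.80% to 13.2% in the other 4 libraries, so the excess of zeros remained at equal totals. Across the tested genes the Spearman correlation of NT-4 replicates 1 and 2 was 0.34, that of control replicates 1 and 2 was 0.87, and that of NT-4 replicate 3 with control replicate 3 was 0.94. These are correlations across genes, which are not independent replicates.

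Other RNA classes moved with the same pair of libraries. Genes of olfactory receptors, which belong to the sensory neurons of the nose, summed to 3835 and 6831 CPM in NT-4 replicates 1 and 2 and to 247 CPM in replicate 3, against 254 to 471 CPM in the controls. Gene models that await experimental evidence (the TEC class of the annotation) took 1.30%, 1.59% and 0.111% of the non-rRNA counts with NT-4, against 0.138% to 0.213% without. Antisense genes took 1.22%, 1.29% and 0.497% with NT-4, against 0.308% to 0.640% without. The part of these differences between libraries in the results below was not tested. Counts of genes, and counts or medians of lists, are therefore also given without both shallow libraries. The NT-4 library that then remains, replicate 3, had 0.198% of its counts on the rRNA gene. The controls had 19.2%, 28.7% and 0.396%. Its Spearman correlation was 0.94 with control replicate 3, and 0.77 and 0.71 with control replicates 1 and 2. An NT-4 difference and such differences between libraries cannot be told apart there.

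**Figure D1:**
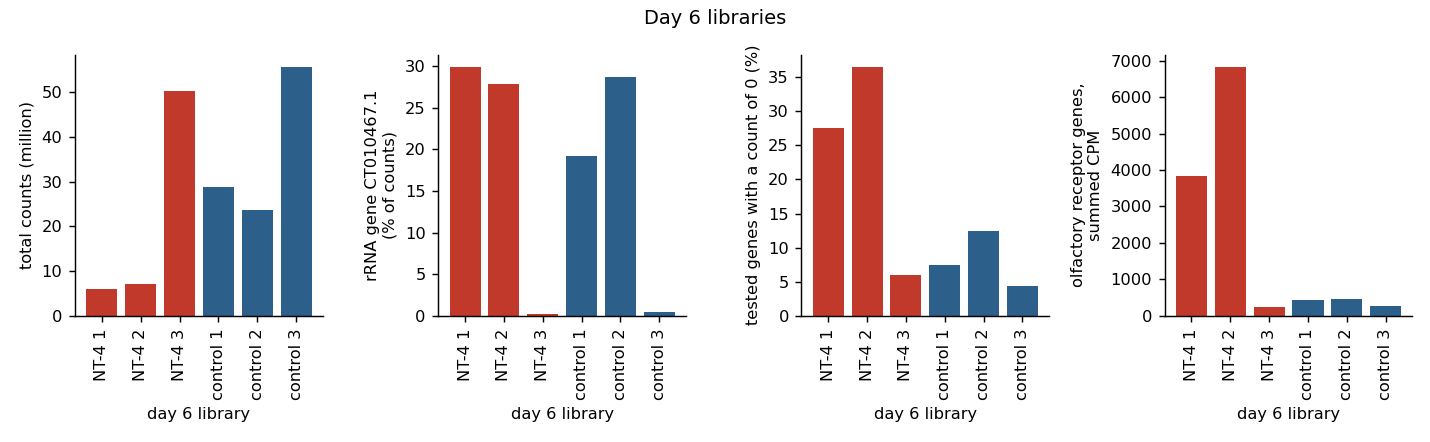
Bars give, for each of the 6 day 6 libraries (red, NT-4; blue, control), the total counts, the share of counts on the rRNA gene CT010467.1 in percent, the share of tested genes with a count of 0 in percent, and the summed CPM of olfactory receptor genes. NT-4 replicates 1 and 2 had totals of 5954262 and 7125348 counts, 27.6% and 36.5% of tested genes at 0, and olfactory receptor sums of 3835 and 6831 CPM, while NT-4 replicate 3 lay beside the controls.

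All 6 libraries carried the RNA of oocytes. Each of 12 oocyte markers was detected in every library, among them the zona pellucida genes Zp1, Zp2 and Zp3 and the secreted growth factors Gdf9 and Bmp15. Their summed level was 19114, 15482 and 18288 CPM with NT-4 and 25453, 26802 and 21368 CPM without, so the groups did not overlap (exact permutation test, two-sided, p = 0.1, the smallest that 3 libraries against 3 allow). Taken singly, 0 of the 12 markers were free of overlap, and their median log2 fold change was -0.20, beside -0.06 over all tested genes. Members went both ways: Padi6 measured 3281, 2172 and 1171 CPM with NT-4 and 7740, 6339 and 2210 CPM without. Gdf9 measured 5195, 3863 and 4644 CPM and 2711, 3615 and 4839 CPM. Granulosa cell markers were low in both groups, with summed levels of 127, 128 and 188 CPM with NT-4 and 244, 233 and 193 CPM without (exact permutation test, two-sided, p = 0.1). The largest part of the sum was Kitl in NT-4 replicate 1 (98.2 CPM) and Nr5a2 in NT-4 replicate 2 (119 CPM). In the other libraries it was Esr2 (94.3 to 157 CPM), so the sums rest on unlike genes. Of 13 such markers 4, 4 and 10 were detected with NT-4 and 11, 9 and 10 without. In pooled cells, fewer adhering granulosa cells, less RNA per cell and the missing counts of both shallow libraries cannot be told apart. Theca and stroma markers summed to 8.09 to 34 CPM with NT-4 and 1.48 to 18.0 CPM without, with Cyp17a1, Lum and Insl3 at 0 in all 6 libraries. Macrophage markers summed to 5.24 to 63.2 CPM and 19.3 to 64.8 CPM, came mostly from C1qb in the controls, and had Ptprc and Itgam at 0 in all 6 libraries.

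Across the transcriptome, more genes were called higher than lower with NT-4, and no gene passed the adjusted threshold. A differentially expressed gene (DEG) was defined by the study's own threshold, a log2 fold change beyond 1 with an unadjusted P under 0.05, here by edgeR's quasi-likelihood test. By this rule 1820 genes (13.0% of those tested) were DEGs, 1210 of them higher (8.65%) and 610 lower (4.36%) with NT-4. The number with a Benjamini-Hochberg adjusted p under 0.05 was 0 by the quasi-likelihood test, with a smallest adjusted p of 0.341, so every gene named below has an adjusted p of at least that value in this comparison, while 1820 genes had an unadjusted P under 0.05 and DESeq2's Wald test gave 584 genes with an adjusted p under 0.05. With RLE in place of TMM scaling, which moved the median log2 fold change of all genes from -0.06 to 0.24, 1554 of 1977 DEGs were higher (78.6%, against 66.5%). Without both shallow libraries, which leaves 1 NT-4 library whose spread is assumed to be like that of the other groups, 713 genes were DEGs, 387 higher and 326 lower, and 146 of them were among the 1820 with the same direction.

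The higher and the lower DEGs differed in how they were spread over the libraries. Of the tested genes, 1617 (11.6%) reached the floor only through the shallow NT-4 libraries, with a mean under 1.68 CPM over the other 4 libraries, and these held 815 of the 1210 higher and 0 of the 610 lower DEGs. A gene that is tested for being high in 1 or both of these NT-4 libraries is favoured, though not forced, to lie higher with NT-4. The number of higher DEGs is therefore in part set by the floor. Of the 1210 higher DEGs, 779 had over 90% of their summed NT-4 level in a single NT-4 library and 321 had no count in any control library. In all, 140 higher DEGs had every NT-4 library above every control library, and over all tested genes this held for 1.58%. Of the 610 lower DEGs, 486 had every NT-4 library below every control library, against 8.02% over all tested genes, and 212 had no count in both shallow libraries. Of these, 20 of 140 and 89 of 486 were still DEGs of the same direction without both shallow libraries. Between the libraries numbered 3, which had like depth, 115 of the higher DEGs were more than 2-fold higher, 1019 lay within 2-fold and 76 were more than 2-fold lower. Between the same libraries 225 of the lower DEGs were more than 2-fold lower and 382 lay within 2-fold. Over all 13986 tested genes, 1187 were more than 2-fold higher and 1697 more than 2-fold lower between them. In pairs of equal number the median log2 ratio over all tested genes was -0.75 (number 1), -0.91 (number 2) and -0.09 (number 3). These ratios are of CPM with 0.5 added, and a number is not known to mark a shared experiment.

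**Figure D2:**
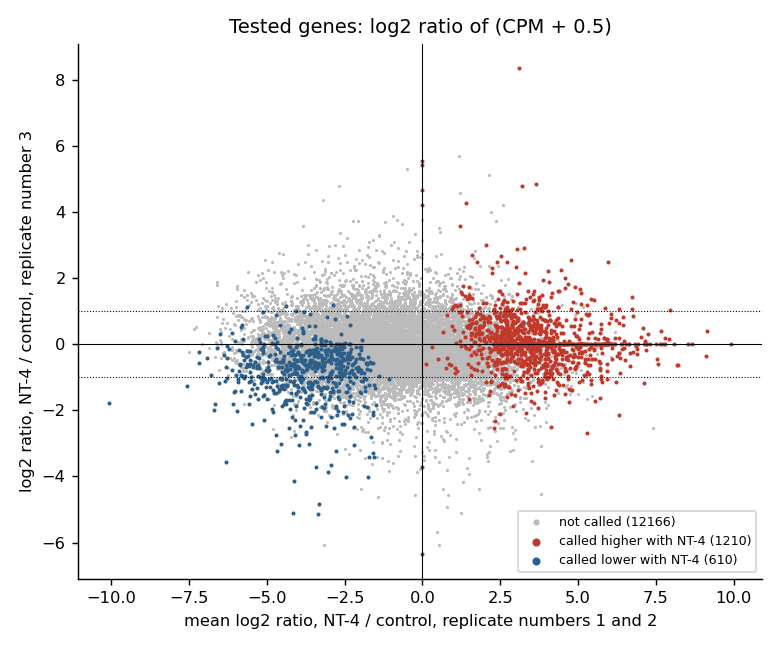
Each point is a tested gene. The horizontal axis is the mean log2 ratio of CPM + 0.5, NT-4 to control, of replicate numbers 1 and 2, and the vertical axis is the same ratio for replicate number 3; red and blue points are DEGs higher and lower with NT-4, grey points are the rest, and dotted lines mark a 2-fold ratio. Most DEGs lie far from 0 on the horizontal axis and within 2-fold on the vertical axis (1019 of 1210 higher and 382 of 610 lower DEGs). On the vertical axis, 1187 of all 13986 tested genes were more than 2-fold higher and 1697 more than 2-fold lower.

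A smaller set of DEGs differed by more than 2-fold in all 3 pairs of equal number with no overlap between the groups, 29 genes higher and 186 lower with NT-4, of which 11 and 74 were DEGs of the same direction without both shallow libraries. These sets were chosen on their values, so their counts are a description. Tuba3a and Tuba3b, which encode near-identical alpha tubulins, were both in the higher set. The level of Tuba3a was 329, 1151 and 1185 CPM with NT-4 and 179, 229 and 184 CPM without, so that all NT-4 libraries were higher (log2 fold change 2.17 ± 0.55 SE). For Tuba3b it was 109, 96.0 and 197 CPM against 45.1, 43.0 and 16.2 CPM (1.95 ± 0.60). Both lie on chromosome 6 of GRCm38, Tuba3a at 125278274 to 125286042 and Tuba3b at 145615757 to 145621479, and reads that fit both copies could have been assigned to either, so their split is uncertain. Without both shallow libraries the log2 fold changes were 2.70 and 2.62.

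Further genes of the higher set were Slc10a6, which encodes a transporter of sulfated steroids, and Rab3il1, which encodes an exchange factor for RAB GTPases. Slc10a6 measured 74.3, 307 and 31.3 CPM with NT-4 and 7.65, 15.7 and 13.4 CPM without (3.49 ± 0.84), and 1.47 without both shallow libraries. Rab3il1 measured 346, 212 and 222 CPM and 62.1, 33.4 and 77.5 CPM (2.17 ± 0.53), and 2.05 without them. In both genes the lowest NT-4 library lay above the highest control library. Sgta, a co-chaperone chosen after its values were seen, measured 138, 104 and 146 CPM and 28.8, 28.5 and 62.0 CPM (1.70 ± 0.59). The splicing factor gene Yju2, chosen likewise, measured 18.8, 7.77 and 29.2 CPM and 2.64, 2.44 and 3.18 CPM (2.75 ± 0.89). Neither gene overlapped between the groups, and Sgta was no longer a DEG without control replicate 1 (1.47). Il20ra, a cytokine receptor subunit also chosen after its values were seen, had 5, 66 and 9721 counts with NT-4 and 0 in each control library, and was at least 5388-fold higher against 3 counts over the control group, a bound that rests on NT-4 replicate 3 and was 258-fold without it and 2281-fold without control replicate 3.

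The lower set of 186 genes included Uhrf1, Dot1l, Ccnk, Atp2a2 and Rara. Uhrf1 on chromosome 17 (56303321 to 56323486, GRCm38), which encodes a factor of maintenance DNA methylation that the oocyte passes to the embryo, measured 92.5, 26.4 and 164 CPM with NT-4 and 942, 534 and 414 CPM without (-2.74 ± 0.73). It was chosen after its values were seen, and without both shallow libraries it was no longer a DEG (-1.83). Dot1l, the methyltransferase of histone H3 lysine 79, measured 26.6, 1.27 and 13.2 CPM and 98.7, 66.9 and 56.8 CPM (-2.44 ± 0.91). Ccnk, the cyclin of the transcription kinases CDK12 and CDK13, measured 15.9, 2.17 and 2.98 CPM and 170.1, 139.8 and 27.6 CPM (-4.01 ± 1.33). Both were also chosen after their values were seen, and in all 3 genes the highest NT-4 library lay below the lowest control library. Atp2a2, the calcium pump of the endoplasmic reticulum, measured 107, 80.8 and 42.3 CPM and 269, 295 and 176 CPM (-1.68 ± 0.61), and -2.43 without both shallow libraries. Rara, the retinoic acid receptor alpha, measured 1.53, 0.723 and 0.199 CPM and 35.2, 44.7 and 6.03 CPM (-5.19 ± 1.34), and -7.03 without them.

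**Figure D3:**
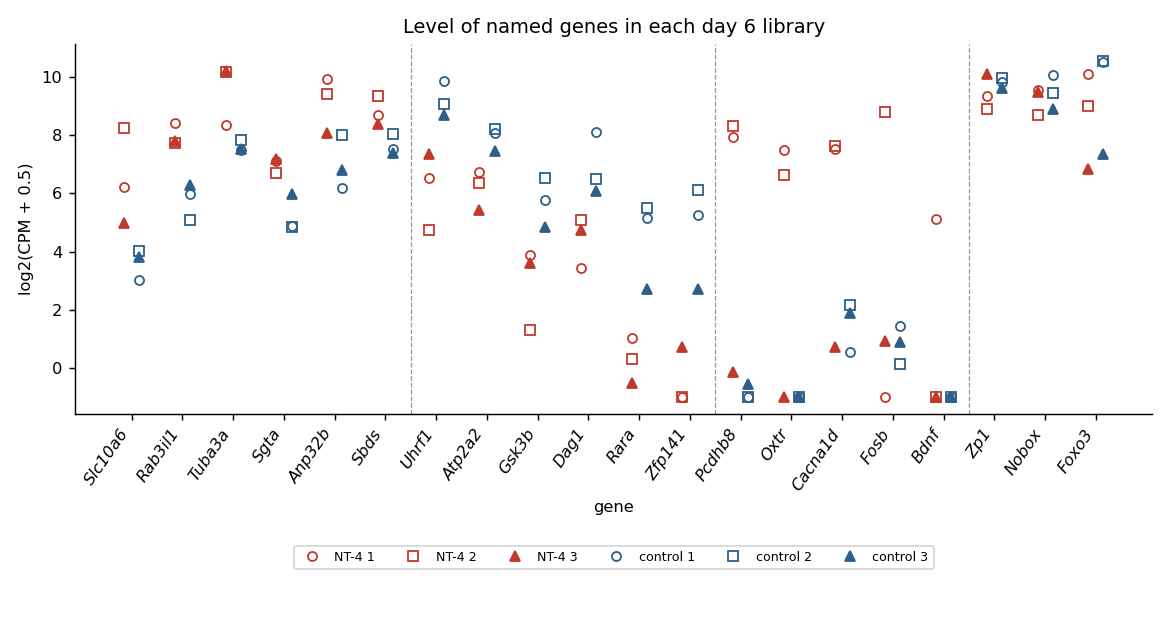
Levels of 20 genes in each library as log2(CPM + 0.5), with NT-4 in red, control in blue and replicate numbers as circles (1), squares (2) and filled triangles (3); dashed lines separate DEGs that were higher without overlap, DEGs that were lower without overlap, DEGs carried by the shallow NT-4 libraries, and oocyte genes that were not DEGs. For Tuba3a the red triangle (1185 CPM) is far above the blue one (184 CPM), while for Cacna1d the NT-4 values are 185, 196 and 1.16 CPM.

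By the naming rule, the 10 higher and 10 lower DEGs of smallest P with no overlap and an official symbol are accounted for here. Higher were Pcdhb8, Slc10a6, Rab3il1, Padi3, Pard6b, Tuba3a, Zfp11, Ing4, Pex14 and Lcp2, and lower were Emc1, Bbx, Ubtd2, Serinc5, Fam13a, Zfp141, Rara, Rsbn1, Tmem51 and Tprn. The highest of them by P, Pcdhb8, a clustered protocadherin, had 1290, 1749 and 24 counts with NT-4 and 0, 0 and 12 without (11.30 ± 2.33), and was no longer a DEG without both shallow libraries (2.66). The same held for the polarity gene Pard6b, with 250.2, 784 and 48.5 CPM against 31.5, 47.6 and 47.1 CPM (3.10 ± 0.78), which was 0.32 without them. Padi3, a peptidylarginine deiminase, had 41, 304 and 47 counts with NT-4 and 0 in the controls, at least 216-fold higher against 3 counts over the control group, a bound of 52.5-fold without NT-4 replicate 2, 91.3-fold without control replicate 3 and 1254-fold without NT-4 replicate 3. Lcp2, an adaptor of T cell receptor signalling, had 50, 25 and 30 counts against 0 in the controls, at least 57.8-fold higher, with a bound of 24.5-fold without control replicate 3, 32.7-fold without NT-4 replicate 1 and 273-fold without NT-4 replicate 3. Pcdhb8, Padi3, Zfp11 and Lcp2 lay under 1.68 CPM in NT-4 replicate 3 and in every control library. They thus reached the floor only through the shallow NT-4 libraries, and their direction is in large part set by the floor. Emc1, a subunit of the complex that inserts membrane proteins at the endoplasmic reticulum, had no count with NT-4 and 87, 223 and 240 counts without, at least 111-fold lower. Ubtd2 (128, 108 and 98 counts in the controls) and Tmem51 (39, 121 and 284 counts) also had no count with NT-4, and were at least 67.4-fold and 89.7-fold lower. The bounds of these 3 genes rest on the depth of NT-4 replicate 3, and were 16.8-fold, 10.2-fold and 13.6-fold for Emc1, Ubtd2 and Tmem51 without it, while that of Ubtd2 was 113-fold without control replicate 3. Fam13a rested on control replicates 1 and 2, with 3.88 and 21.4 CPM there, 0.0886 CPM in control replicate 3, and 0, 0 and 0.0663 CPM with NT-4.

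Most calls depended on single libraries. Of the 1820 DEGs, 343 (18.8%) kept their call and direction whichever of the 6 day 6 libraries was left out, 171 higher and 172 lower. Of these, 80 were also DEGs without both shallow libraries, 23 higher and 57 lower. Under all 18 alternatives of the analysis except the stricter floor, which tests fewer genes, 19 genes kept their call, 8 higher and 11 lower. The higher ones were Tuba3a, Rab3il1, Slc10a6, Padi3, Lcp2, Klf15, 8430426J06Rik and Gm15927, and the lower ones were Adgrg1, Ano1, Ccnk, Emc1, Fmnl3, Gpr165, Pgbd5, Tmem51, Ubtd2, Zfp141 and Gm40663. Adgrg1, an adhesion G protein-coupled receptor, measured 24.5, 1.45 and 14.0 CPM with NT-4 and 184, 204 and 60.0 CPM without (-3.49 ± 1.01). Fmnl3, a formin that nucleates actin filaments, measured 67.8, 103 and 53.6 CPM and 459, 440.2 and 148 CPM (-2.22 ± 0.68). Ano1, a calcium-activated chloride channel, had no count with NT-4 and 54, 295 and 157 counts without, at least 102-fold lower, a bound of 15.5-fold without NT-4 replicate 3, 51.6-fold without control replicate 2 and 166-fold without control replicate 3. These genes were picked out by the alternatives after the values were seen. Among the higher ones, Padi3 and Lcp2 reached the floor only through the shallow NT-4 libraries, which favours a call in that direction.

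Most of the DEGs with the highest mean level lost their call without a single library. The 5 higher DEGs of highest mean level were Tuba3a, Rbm25, Anp32b, Sbds and Kcnq1ot1. Rbm25, a splicing regulator, measured 749, 1187 and 94.7 CPM with NT-4 and 169.5, 187 and 129 CPM without (2.06 ± 0.78). It was no longer a DEG without NT-4 replicate 2 (1.38) or without control replicate 1 (2.04) or 3 (1.93), and lay at -0.66 without both shallow libraries. Sbds, a factor of ribosome assembly, measured 417, 655 and 333 CPM and 185, 265 and 169 CPM with no overlap (1.18 ± 0.50), but was not a DEG without NT-4 replicate 2 (0.86) or without control replicate 1 (1.05) or 3 (1.06). The histone chaperone gene Anp32b measured 973, 691 and 269.7 CPM and 73.1, 254 and 112 CPM (2.14 ± 0.73), and 1.75 without control replicate 1, where the call was lost. Kcnq1ot1, a long noncoding RNA transcribed antisense to Kcnq1, measured 492, 1201 and 0.0332 CPM and 10.6, 8.05 and 1.85 CPM (6.37 ± 2.02), so that NT-4 replicate 3 was the lowest of all 6 libraries. Sbds (0.80) and Anp32b (1.0) were also not DEGs without both shallow libraries, and Kcnq1ot1 lay at -7.45, past the threshold in the other direction. The counting is not stated to use strand, so its reads cannot be told apart from those of the gene it overlaps.

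The 5 lower DEGs of highest mean level were Alg10b, Ermp1, Tbc1d14, Hif1a and Zfp750. In 3 of them the groups overlapped, since control replicate 3 was as low as the NT-4 libraries. Hif1a, the oxygen-regulated transcription factor, measured 102, 129.6 and 105 CPM with NT-4 and 1288, 759 and 122 CPM without (-2.69 ± 1.0). Alg10b, a glucosyltransferase of N-glycan assembly, measured 99.7, 182 and 274 CPM and 1493, 1473 and 249 CPM (-2.53 ± 1.02). Zfp750, a zinc finger gene, measured 100.1, 147 and 69.0 CPM and 966, 917 and 129 CPM (-2.67 ± 0.96). Ermp1, a peptidase of the endoplasmic reticulum, measured 269.7, 145 and 287 CPM and 898, 1014 and 447 CPM with no overlap (-1.75 ± 0.65). Each of these genes lost its call without at least 1 single library: Ermp1 without control replicate 2 (-1.52) or NT-4 replicate 2 (-1.50), Zfp750 without NT-4 replicate 3 (-2.44), Hif1a without control replicate 1 (-2.05), NT-4 replicate 1 (-2.62) or NT-4 replicate 3 (-2.64), and Alg10b without control replicate 1 (-2.29) or 2 (-2.23) or NT-4 replicate 1 (-2.23) or 2 (-2.52). None of these 4 was a DEG without both shallow libraries (Hif1a -2.66, Alg10b -1.85, Zfp750 -3.16 and Ermp1 -1.34).

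The neurotrophins and their receptors, the system to which NT-4 belongs, were low in these oocytes. Of 12 listed genes 7 were tested, 3 of which were DEGs, all higher (42.9%, against 8.65% of all tested genes), and 2 of the 7 reached the floor only through the shallow libraries. Of the 7 genes, 0 were DEGs without both shallow libraries. Ntrk2, which encodes the NT-4 receptor TRKB, had 196, 0 and 11 counts with NT-4 and 159, 49 and 50 without, equal to 37.5, 0 and 0.182 CPM and to 5.45, 2.39 and 0.739 CPM. The groups overlapped and Ntrk2 was not a DEG (2.13 ± 1.92), and without NT-4 replicate 1 its value was -4.56, which passed the threshold. Ntf5, the NT-4 gene, had 0, 0 and 80 counts with NT-4 and 0, 0 and 101 without, and Ngfr had 0, 0 and 26 against 0, 0 and 48, so both were seen only in the libraries numbered 3.

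The 3 DEGs of this group each lost their call without a single library. Bdnf, the other ligand of TRKB, had 180 counts in NT-4 replicate 1 and none in the other 5 libraries. Sorcs1, a sorting receptor, had 98 counts in the same library and none elsewhere. Ntrk3, the receptor of neurotrophin-3, measured 19.5, 163 and 2.59 CPM with NT-4 and 11.7, 2.49 and 5.44 CPM without (3.24 ± 1.39). It was not a DEG without NT-4 replicate 2 (0.75) or without control replicate 2 (2.85) or 3 (3.12), and without both shallow libraries it lay at -1.23. Without NT-4 replicate 1, Bdnf and Sorcs1 had no count in the comparison.

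Signalling genes downstream of TRK receptors were mostly not DEGs. Of 64 tested genes of TRK adaptors and the RAS-MAPK cascade, 2 were higher, among them Araf, and 4 were lower (Crk, Nf1, Sos2 and Map2k4), which is 3.12% and 6.25% against 8.65% and 4.36% of all tested genes. Their median log2 fold change was -0.08, beside -0.06 over all tested genes. In the comparison without both shallow libraries their median was -0.40, beside -0.02 over all tested genes. Crk, an SH2 and SH3 adaptor, measured 20.1, 6.69 and 52.2 CPM with NT-4 and 125, 162 and 86.5 CPM without, with no overlap (-2.24 ± 0.76), but was not a DEG without both shallow libraries (-1.14).

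Of 38 tested genes of PI3K, AKT, mTOR and FOXO signalling, 1 was higher and 4 were lower (2.63% and 10.5%, against 8.65% and 4.36% of all tested genes). Their median was -0.74, beside -0.06 over all tested genes. With RLE scaling it was -0.34, beside 0.24, and without both shallow libraries it was -1.34, beside -0.02. In the pair of libraries numbered 3 it was -0.45, beside -0.09 over all tested genes. The lower ones included Gsk3b, Pdpk1 and Mtor, which did not overlap between the groups. Gsk3b, a kinase that AKT inhibits, measured 14.4, 1.99 and 11.7 CPM with NT-4 and 54.0, 92.5 and 28.4 CPM without (-2.64 ± 0.84), and -2.20 without both shallow libraries. Pdpk1, which activates AKT, measured 33.7, 35.2 and 51.7 CPM and 301, 180 and 70.6 CPM (-2.19), but was not a DEG without control replicate 1 (-1.71) or without both shallow libraries (-1.72). Mtor, the kinase of the mTOR complexes, measured 39.8, 1.08 and 19.3 CPM and 152, 99 and 41.4 CPM (-2.28 ± 1.05) and lost its call without control replicate 1 (-1.87) or 2 (-2.27) or NT-4 replicate 2 (-1.72) or 3 (-2.25), and without both shallow libraries (-2.22). The higher one, Irs2, an adaptor of the insulin receptor, had 377, 13 and 8 counts with NT-4 and 0, 0 and 22 without, so that NT-4 replicate 1 carried it, and it lost its call without that library (3.37) and without control replicate 1 (7.14) or 2 (7.18).

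Among transcription factors and immediate early genes, 1 of 15 tested genes was a DEG (6.67% higher, against 8.65% of all tested genes), and 0 were without both shallow libraries. Fosb, an AP-1 subunit, measured 0, 444 and 1.38 CPM with NT-4 and 2.20, 0.586 and 1.33 CPM without, and without NT-4 replicate 2 its log2 fold change was -0.90. Jun was at 0, 0 and 8 counts in both groups. Nfkb1 measured 4.40, 16.8 and 3.07 CPM and 0.412, 0.390 and 3.50 CPM (2.48 ± 1.25), and Rela measured 74.7, 301 and 30.0 CPM and 145, 141 and 54.8 CPM (0.25 ± 1.25). Neither was a DEG, and the groups overlapped in both.

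With all 6 libraries, the list of oocyte identity and growth genes held no DEG. Of 43 tested members, 0 were DEGs and 0 had an unadjusted P under 0.05 by the quasi-likelihood test, with a median of -0.22 that changed sign with RLE scaling (0.09). Its median was 0.50 without both shallow libraries, where 1 gene was higher (H1foo, a linker histone of oocytes) and 1 was lower (Nlrp5, a maternal effect gene). The zona pellucida gene Zp3 measured 1148, 987 and 3961 CPM with NT-4 and 1113, 1165 and 4336 CPM without (-0.12 ± 0.95), with both libraries numbered 3 above the rest. Zp1 measured 652, 482 and 1095 CPM and 917, 1010 and 789 CPM (-0.29 ± 0.48). Of the oocyte transcription factors, Nobox measured 753, 417 and 718 CPM and 1089, 699 and 483 CPM (-0.27 ± 0.54), and Lhx8 measured 87.3, 12.7 and 228 CPM and 257, 417 and 135 CPM (-1.30 ± 0.81). Foxo3, which holds primordial follicles dormant, measured 1104, 509 and 115 CPM and 1474, 1511 and 164 CPM (-0.86 ± 1.07), with both libraries numbered 3 below the rest. Sohlh2 (0.76 ± 1.42), the histone methyltransferase gene Suv39h1 (2.12 ± 1.53) and Zp4-ps (-0.07 ± 1.60), which the annotation lists as a pseudogene, overlapped between the groups as well. The standard errors of these 8 genes were 0.48 to 1.60, where a 2-fold difference is 1 on this log2 scale.

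Lists of meiosis and of basic cell functions had few DEGs. Of 43 genes of meiotic arrest and resumption, 1 was higher (Adcy3) and 1 lower (Cdc25b), of 50 DNA replication genes 2 were higher (Pola2 and Lig1) and 1 lower (Mcm10), and of 31 base excision repair genes 2 were higher (Tdg and Lig1) and 2 lower (Smug1 and Parp4). These shares are 2.33% to 6.45%, against 8.65% of all tested genes, for the higher and 2.0% to 6.45%, against 4.36%, for the lower DEGs. With all libraries the medians of these lists were -0.29, 0.05 and -0.05 in the same order, beside -0.06 over all tested genes. When both shallow libraries were left out, they were -0.22, 0.54 and 0.33, beside -0.02 over all tested genes. Cdc25b, the phosphatase that activates CDK1 at meiotic resumption, measured 40.4, 3.07 and 30.6 CPM with NT-4 and 158, 136 and 46.1 CPM without (-2.20 ± 0.92), a call lost without control replicate 1 (-1.96) or 2 (-2.05) or NT-4 replicate 2 (-1.68), and without both shallow libraries (-1.78). Smug1, a uracil DNA glycosylase, measured 8.04, 1.45 and 17.9 CPM and 55.8, 83.5 and 52.4 CPM with no overlap (-2.79 ± 1.01), and was not a DEG without both shallow libraries (-1.72). Of 50 genes of actin organization, 0 were higher and 4 lower (Rock2, Cttn, Myh10 and Diaph1), which is 8.0% against 4.36% of all genes. Without both shallow libraries their median was -0.13, beside -0.02 over all tested genes. Rock2, the kinase downstream of RHOA, measured 4.21, 0.361 and 7.89 CPM and 20.7, 51.4 and 19.2 CPM (-2.86 ± 1.01), but lost its call without control replicate 2 (-2.25). Of 25 apoptosis genes 0 were higher and only Xiap, an inhibitor of caspases, was lower (4.0%, against 4.36% of all tested genes). Its log2 fold change was -2.57, with control replicate 3 at 6.97 CPM between the NT-4 libraries at 4.59, 14.3 and 7.44 CPM. Without both shallow libraries Xiap was no longer a DEG, and the list median was -0.20, beside -0.02 over all tested genes.

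Genes of ribosomal proteins and mitochondrially encoded mRNAs had medians of unlike sign in the pairs of libraries. Of 78 genes of cytosolic ribosomal proteins, 0 were higher and 1 lower (Rpl23), which is 1.28% against 4.36% of all tested genes. Their median was 0.17, with medians of 0.42, 1.06 and -0.54 in the pairs numbered 1, 2 and 3. Of 80 nuclear genes of oxidative phosphorylation, 2 were higher (Ndufs1 and Sdha) and 0 lower, which is 2.5% higher against 8.65% of all tested genes. Their pair medians were -0.31, 0 and -0.50. Without both shallow libraries their median was 0.66, beside -0.02 over all tested genes. Of 13 mitochondrially encoded mRNAs 0 were DEGs and 0 had an unadjusted P under 0.05, and their pair medians were 1.06, 1.93 and -1.52. Without both shallow libraries their median changed from 0.58 to -1.40, with mt-Nd1, mt-Nd3 and mt-Nd5 lower.

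In the lists of receptors, channels and matrix genes, many members were too low to be tested, and others were tested only for their level in the shallow libraries. Of 60 tested neuroactive receptor genes 17 were higher (28.3%) and 7 lower (11.7%), of 72 calcium signalling genes 17 were higher (23.6%) and 3 lower (4.17%), of 52 genes of the extracellular matrix and its receptors 10 were higher (19.2%) and 3 lower (5.77%), and of 50 olfactory receptor genes 15 were higher (30.0%) and 0 lower. Over all tested genes 8.65% were higher and 4.36% lower. In the same order 19, 17, 15 and 31 tested members reached the floor only through the shallow NT-4 libraries, and these were 13, 13, 8 and 15 of the higher DEGs. The higher shares are therefore in large part set by the floor and are no result about the lists. Of the lower DEGs, 0 reached the floor in this way. In these lists 0, 0, 1 and 0 genes were higher DEGs without both shallow libraries. The only one was Itga9, which was not a DEG with all libraries.

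Single genes of these lists show how the values were spread. Oxtr, the oxytocin receptor, had 930 and 553 counts in NT-4 replicates 1 and 2 and none in the other 4 libraries. Olfr672 had 1209 counts in NT-4 replicate 2 and none elsewhere. Cacna1d, a voltage-gated calcium channel, measured 185, 196 and 1.16 CPM with NT-4 and 0.961, 3.95 and 3.18 CPM without (5.56 ± 1.42), and -1.10 without both shallow libraries. Camk2d, a calcium and calmodulin dependent kinase, measured 63.7, 207 and 1.67 CPM and 1.48, 0.586 and 0.547 CPM with no overlap (6.70 ± 1.80), and 1.06 without them. The collagen gene Col6a2 had 170, 3415 and 0 counts with NT-4 and 0, 0 and 19 without. Among the lower DEGs of these lists, Dag1, the matrix receptor dystroglycan, measured 10.3, 33.4 and 26.5 CPM and 279, 90.5 and 67.3 CPM with no overlap (-2.64 ± 0.82), and was not a DEG without both shallow libraries (-2.35). Fshr, the receptor of follicle-stimulating hormone on granulosa cells, had 0, 0 and 30 counts with NT-4 and 27, 26 and 437 without (-3.77 ± 1.41), and it was not a DEG without control replicate 3 (-2.37) or without both shallow libraries (-2.43).

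The rest of the lists was as follows. Of 45 N-glycan biosynthesis genes 3 were higher and 5 lower, of 22 glycan degradation genes 2 were higher (Neu1 and Hexa) and 0 lower, and of 39 Notch genes 5 were higher (Notch4, Maml2, Maml3, Hey2 and Hdac1) and 0 lower. The higher shares were 6.67%, 9.09% and 12.8%, against 8.65% of all tested genes, and the lower share of the first list was 11.1%, against 4.36%. Of the higher DEGs, 2, 2 and 4 reached the floor only through the shallow libraries. With both shallow libraries left out, 2, 1 and 0 genes of these lists were higher and 3, 0 and 0 lower. Neu1, a lysosomal sialidase, had 489, 0 and 105 counts with NT-4 and 29, 8 and 123 without, and its log2 fold change of 4.88 became -0.23 without NT-4 replicate 1. Notch4 had 511 counts in NT-4 replicate 1, 15 in replicate 3 and none elsewhere. Ganab, the glucosidase II subunit that trims N-glycans, measured 0.957, 1.45 and 12.8 CPM and 77.2, 87.4 and 14.8 CPM with no overlap (-3.53 ± 1.13), lay close together in the libraries numbered 3, and was not a DEG without both shallow libraries (-2.11). Among granulosa markers 2 of 7 tested genes were lower (28.6%, against 4.36% of all tested genes), namely Fshr and Hsd17b1, with a list median of -1.31. Hsd17b1 had 0, 0 and 51 counts with NT-4 and 58, 554 and 12 without. It was not a DEG without control replicate 2 (-1.69), and its log2 ratio in the pair numbered 3 was 0.99. Among macrophage markers 1 of 2 was higher (Csf1r, with 272 counts in NT-4 replicate 1, 0 in replicate 2 and 25 in replicate 3, against 0, 0 and 19). The single tested gene of theca and stroma was not a DEG, and no marker of these 3 cell types was a DEG without both shallow libraries. The lists were written with earlier results of these data known.

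**Figure D4:**
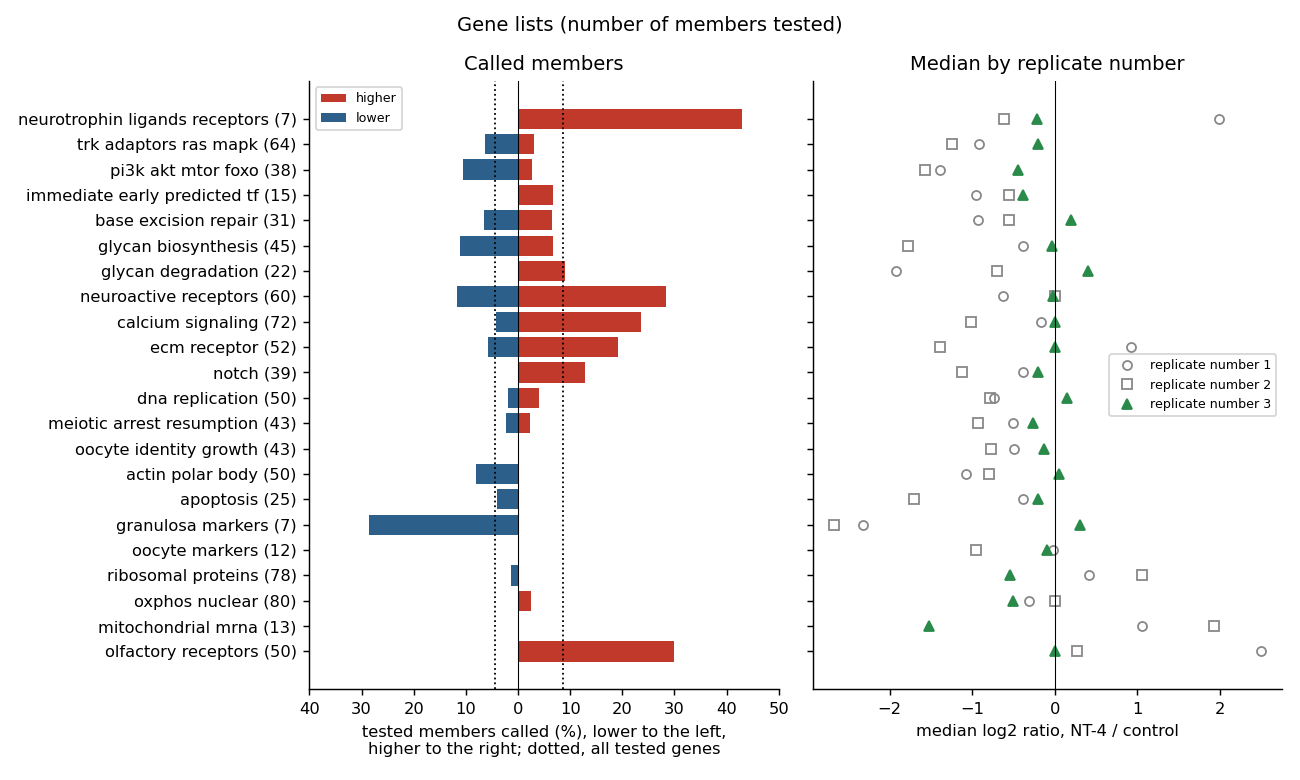
The left panel gives the percentage of tested members of each gene list that were DEGs higher (right, red) or lower (left, blue) with NT-4, with dotted lines at 8.65% and 4.36%, the shares of all tested genes, and includes members tested only through the shallow libraries. The right panel gives the median log2 ratio, NT-4 to control, of each list in the pairs of libraries numbered 1, 2 and 3, where the pair numbered 3 lies nearer to 0 than at least 1 of the other pairs in 21 of 22 lists; lists with fewer than 7 tested genes are not drawn.

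The day 6 difference was set against that on day 10, when oocytes of the same 2 cultures were collected at the end of growth. On day 10, 22 of the 13986 genes were DEGs (0.157%), 15 of which were among the 1820 of day 6, which is 68.2% of the day 10 DEGs and 0.824% of the day 6 DEGs. Of all tested genes, 13.0% were DEGs on day 6. In 7 of the 15 genes called on both days the direction was the same. Genes were kept for testing by their day 6 level, so the day 10 count and this overlap depend on that floor. Both days were also tested in the same fit, with a shared estimate of the spread of each gene. In the fit of both days, 830 genes (5.93%) had a difference between the day 6 and the day 10 effect beyond the same threshold, 659 of them with the larger value on day 6. By the quasi-likelihood test 0 genes had an adjusted p under 0.05 for this difference, 830 had an unadjusted P under 0.05, and DESeq2 gave 99 with an adjusted p under 0.05. Of the tested genes, 1617 reached the floor only through the shallow day 6 NT-4 libraries. The 830 and the 659 are therefore in part set by the floor. Without both shallow libraries 370 genes passed the unadjusted threshold.

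Of the 1210 genes higher on day 6, 498 were also higher on day 10, with a median log2 fold change of -0.07 there, and of the 610 lower ones 364 were lower, with a median of -0.09. Over all tested genes 52.8% were higher on day 10, with a median of 0.03. Of the 1820 DEGs of day 6, 774 passed the unadjusted threshold for the difference between the days, which 5.93% of all tested genes passed. That difference contains the day 6 value by which these genes were chosen, so the 774 are a description and no separate test. Examples among the genes described above, given by their day 10 value and the difference, were Tuba3a at 0.12 (2.05), Rab3il1 at -0.08 (2.26), Slc10a6 at -0.15 (3.64), Gsk3b at -0.06 (-2.58) and Atp2a2 at 0.33 (-2.01). Their adjusted p in the quasi-likelihood test of that difference was at least 0.728. Padi3 was a DEG of opposite direction on day 10, with 0 counts in each NT-4 library and 4, 46 and 15 in the controls. Uhrf1 was -0.70 on day 10, and its difference between the days (-2.03) did not pass the threshold.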

How the data were processed

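Oocyte RNA-seq of 6 day 6 libraries was analysed within all 15 libraries of the series, which share the estimate of the spread. Per the labels and the study's methods, the authors trimmed adaptors and bases of quality under 20, aligned with HISAT2 to mm10, and deposited raw counts per Ensembl gene without normalization. FastQC and edgeR also stand in the submitters' processing notes. The study's methods name StringTie for assembly and FPKM, and the tool and annotation release behind the counts are not given in the sources used here. Groups and replicate numbers were taken from the titles.

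Counts were analysed with R 4.3.3, edgeR 4.0.16 and DESeq2 1.42.0, and figures were drawn with matplotlib. The rRNA gene CT010467.1 stayed in the library totals. Genes kept by filterByExpr (minimum count 10) with a mean of at least 1.68 CPM over the day 6 libraries were scaled by TMM and tested with edgeR's quasi-likelihood test on group means. CPM are relative to the TMM-scaled total, and SE is the log2 fold change over the square root of F. A level compares libraries, not genes of unlike length. Bounds set a group at 0 to 3 counts over the group. PCR copies carry no molecular identifier, so counting error is a lower limit. Symbols and positions (99.5% of gene identifiers) are from GENCODE vM21, GRCm38. The test was checked on simulated counts.

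Named genes were the neurotrophin genes, 8 oocyte genes, Jun, Nfkb1 and Rela, the 10 DEGs in each direction of smallest P with an official symbol and groups without overlap, the 5 in each direction of highest level, and DEGs of the 24 lists. The comparison, members and lists were chosen with earlier results of these data known. The in vivo libraries served only the estimate of spread. A few genes that this rule covers are not reported here.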

Additional observations from a re-analysis of the deposited data

How the results depend on the processing

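The counts of DEGs moved with the libraries used more than with the scaling. Against 1820 DEGs (1210 higher, 610 lower), 830 genes with a difference between the days, and 0 genes with an adjusted p under 0.05 in either test, the values were as follows. Leaving out 1 library gave 1045 to 5187 DEGs, 698 to 1718 higher and 301 to 3469 lower, 0 to 2841 with an adjusted p under 0.05, and 598 to 3954 genes with a difference between the days, 0 to 1796 of them by adjusted p. The highest values were without NT-4 replicate 3, and there were 1099 and 1045 DEGs without control replicates 1 and 2. Only replicates 1 and 2 gave 4590 DEGs, 3186 lower, with 2071 by adjusted p, and 3629 and 1348 for the days. Both shallow libraries left out, an alternative chosen after seeing the data, gave 713 DEGs (387 and 326) and 370 for the days. The 6 libraries alone gave 776 (671 and 105). DESeq2 gave 584 and 99 genes by adjusted p. Without any filter there were 3506 DEGs, 2809 higher, and 1703 for the days. filterByExpr alone gave 1014 lower and 1339 for the days, the stricter floor, which tests fewer genes, 387 lower and 540 for the days, and the kind of library (rRNA gene over or under 5%) as a covariate 1061 lower. Thinning all libraries to 5954262 counts gave 2070 DEGs, within 1.5 times. Except for the stricter floor, the cause was not tested.

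The replicate block gave 417 DEGs (253 higher, 164 lower, 12 by adjusted p) in the 6 day 6 libraries and 1102 (561 higher) with 530 for the days in the 12 in vitro libraries. The deviations of libraries of equal number correlated at 0.098, 0.117 and 0.35, so not every pair passed 0.1 and the numbers were not taken as pairs. As a hint from the data, each library correlated best with its own number.

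Without both shallow libraries 658 of the 1820 DEGs changed sign and 146 were DEGs of the same direction. Sign changes numbered 240 and 211 without NT-4 replicates 1 and 2. Among the genes of the lists and the naming rule that were followed, log2 fold changes reversed without both shallow libraries for Ntrk3 (-1.23), Rbm25 (-0.66), Kcnq1ot1 (-7.45), Lig1 (-0.77), Cacna1d (-1.10), Adcy3 (-2.27) and Col6a2 (-5.08), and Bdnf, Sorcs1, Oxtr and Olfr672 had no count left. Leaving out 1 library gave ranges of -4.56 to 2.94 for Ntrk2, -0.90 to 7.34 for Fosb, -0.23 to 5.51 for Neu1 and -3.18 to 7.74 for Adcy3.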

Other observations

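Among classes of genes, the share of higher DEGs was 7.91% of 11937 protein-coding genes, 12.1% of 521 lincRNAs, 18.1% of 249 antisense genes, 19.8% of 126 processed transcripts and 26.6% of 124 TEC genes. The share of lower DEGs was 4.72%, 2.30%, 1.61%, 3.97% and 7.26% in the same order. Of the tested genes of these classes, 1117, 125, 75, 34 and 55 reached the floor only through the shallow NT-4 libraries, so the shares of higher DEGs are in part set by the floor. Without both shallow libraries 351, 8, 2, 1 and 0 were higher and 298, 9, 2, 3 and 2 lower.

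Of the tested genes, 946 were more than 2-fold higher and 3745 more than 2-fold lower in both pairs of libraries numbered 1 and 2. Another 2631 genes were more than 2-fold higher in one of these pairs and more than 2-fold lower in the other. In all 3 pairs, 60 genes were more than 2-fold higher and 453 more than 2-fold lower. These ratios are of CPM with 0.5 added.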
